A study of Rattus norvegicus with 12 samples.

Results

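The insulin-like growth factor (IGF) axis was followed through 10 genes, chosen as the ligand Igf2, the receptors Igf1r and Insr, the docking substrate Irs2 and the binding proteins Igfbp1 to Igfbp6. They were found as every probe set whose only gene symbol is 1 of these names, which gave 21 of the 31099 probe sets and 10 of the 14218 genes on the rat array. Total RNA came from 6 samples of CRI-G1-RS and 6 samples of CRI-G1-RR, untreated rat insulinoma cells kept in high-glucose medium with fetal bovine serum. CRI-G1 was derived from a transplantable rat islet tumour. CRI-G1-RR is its original clone, which resists the complex I inhibitor rotenone, and CRI-G1-RS is a rotenone-susceptible subclone of it. RS is thus 1 subclone kept apart in culture, so a difference between the lines cannot be told apart from a difference between any pair of clones, and p-values measure only the spread between passages of these 2 lines. The passages of the lines were collected in pairs, but the labels do not say that equal replicate numbers mark a pair, so the lines were compared without pairing. The question was how the genes of the axis differ between the susceptible line and the resistant line.

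IGFs and insulin are secreted peptides that bind receptor tyrosine kinases, which phosphorylate docking proteins such as Irs2 and so start the PI3K-Akt and Ras-MAP kinase branches. In extracellular fluid most IGF is held by binding proteins, which restrain or prolong its action and are in turn cut by proteases. In the islet, insulin is the product of the beta cell itself, and mice that lack Irs2 lose beta cells and become diabetic.

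Of the 10 genes, 4 were higher and 3 lower in RS cells, and the binding proteins moved in opposite directions. Igfbp3 and Igfbp5 were higher, as were Igf2 and, by a small margin, Igf1r, while Igfbp4, Igfbp6 and Irs2 were lower and Igfbp1, Igfbp2 and Insr did not pass the test. These counts use the probe set of highest mean signal for each gene and an adjusted p of 0.05 (limma, Benjamini-Hochberg over all probe sets). Across all genes taken the same way 39.2% passed, 21% higher and 18.3% lower. Igfbp3 and Igfbp4 changed at least 2-fold, as did 4.85% of all genes. For 6 of the 10 genes no array of RS overlapped any array of RR, against a background of 27.2%, and for each of these the exact two-sided permutation test gave its smallest possible p, 0.00216. The median size of the log2 change was 0.49 over the 10 genes and 0.21 over all genes, while the median of the signed changes was 0.16 over the 10 genes and 0.02 over all. Counted by probe set, 9 of 21 passed, 6 higher and 3 lower, where 31.7% of all probe sets did. At least 2-fold were 3 of the 21, those of Igfbp3 and Igfbp4, against 3.95% of all, and in 7 of the 21 the arrays of the lines did not overlap, against 20.3% of all. All 9 lay among the 11 with a mean signal of at least 50 in at least 1 of the lines, for which the background was 46.4%. None of the other 10 passed, where 7.83% of all such dim probe sets did. The 10 genes were chosen with earlier results of these data known, so no excess over the array can be read from these contrasts.

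**Figure D1:**
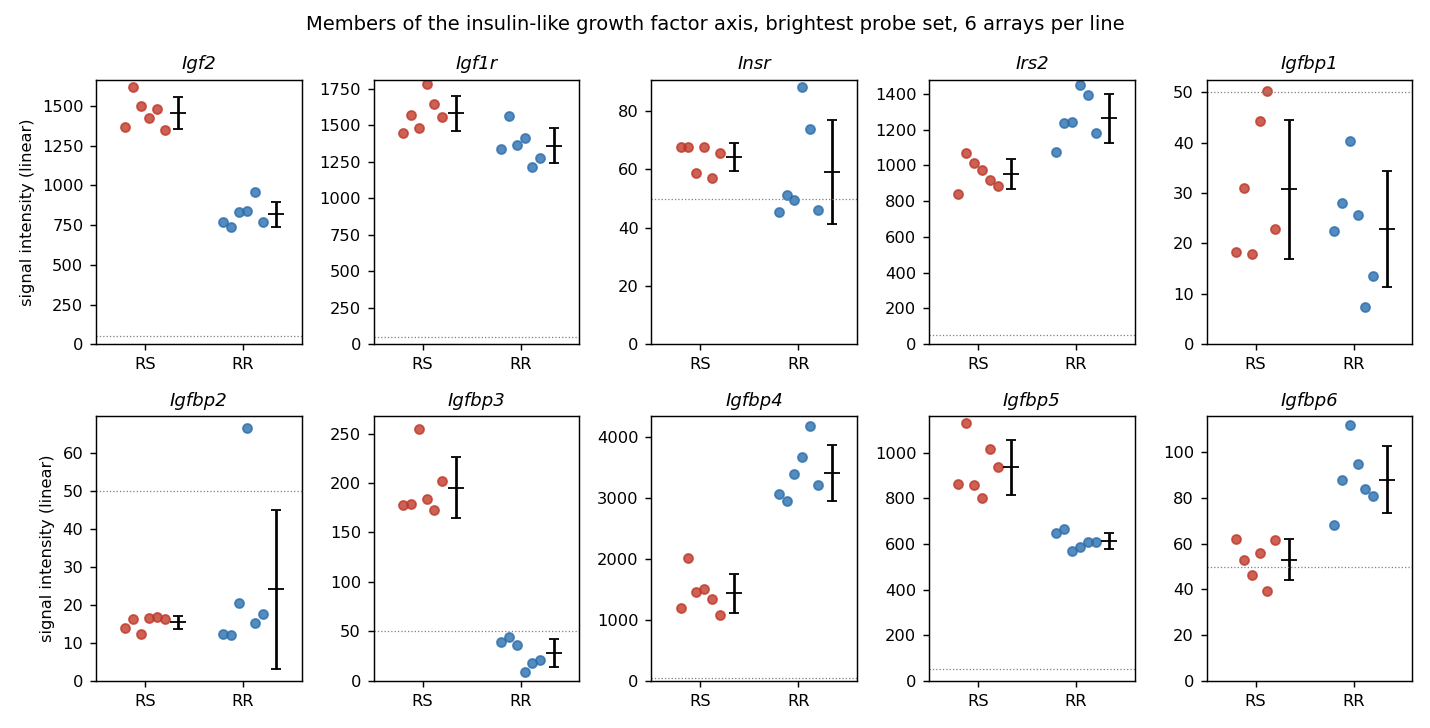
Signal intensity (linear scale, starting at 0) of the brightest probe set of each of the 10 genes, with 6 RS arrays in red on the left and 6 RR arrays in blue on the right of each panel. Bars are the mean and SD of each line, and the dotted line marks a signal of 50. Igf2, Irs2, Igfbp3, Igfbp4, Igfbp5 and Igfbp6 separate without overlap, and 1 RR array of Igfbp2 stands at 66.4.

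RNA was taken from whole cultures, so a change in the share of cells that express a gene and a change in RNA per cell cannot be told apart. Signals are linear intensities scaled by the authors to a common array mean. Fold changes are differences of log2(signal + 16) after quantile normalization, RS minus RR, and understate the change of dim genes. The signal of a probe set depends on its probes, so each was compared only with itself. Arrays correlated at 0.979 to 0.987 within RS, 0.98 to 0.987 within RR and 0.952 to 0.965 between the lines. RS replicate 2 was the array furthest from its own line, with a mean correlation of 0.98 to the other RS arrays, and it was the highest RS array for 5 of the 11 brighter probe sets. Without it, Igf1r lost its call (adjusted p 0.058) and the other 6 genes kept theirs. The accession numbers of RR replicates 1 to 3 stand apart from those of RR replicates 4 to 6, which run on into the RS samples, and what the break stands for is not given in the sources used here. All 6 RS arrays were therefore also fitted against each RR trio alone, a step added after seeing the data. Igfbp3, Igfbp4, Igfbp5, Igfbp6, Igf2 and Irs2 kept their direction and call against either trio, and Igf1r and Insr did not. Beta-cell markers were present in both lines, with 11 of 12 measured markers at 50 or more. Slc2a2, the rat beta-cell glucose transporter, was the exception, with a mean of 1.64 in RS and 9.7 in RR. The summed signal of these markers was 23369 to 27218 in RS and 17716 to 19501 in RR. Of the 12, 8 were higher in RS and 1, the dim Slc2a2, was lower (-0.51, adjusted p 0.0436, limma). Gcg, an alpha-cell hormone, averaged 6589 in RS and 7329 in RR and did not pass (-0.07, adjusted p 0.327, limma). Of the other islet hormones Sst, Ppy and Ghrl, all under 50, Ghrl passed as higher (0.91, adjusted p 0.000356). Of 7 fibroblast and stellate cell markers 4 were under 50 in both lines, Col1a2, Dcn, Lum and Pdgfrb, and the list summed to 328 to 408 in RS and 245 to 316 in RR. Of the 3 brighter ones Pdgfra passed, at 153 ± 27.7 in RS and 83.4 ± 15 in RR (log2 fold change 0.74, adjusted p 0.000485, limma), in the direction of Igfbp3 and Igfbp5, and Col1a1 and Col3a1 did not. The 3 duct markers summed to 3317 to 4200.1 in RS and 4816 to 5886 in RR. Nearly all of this was Krt7, at 3665 ± 309 in RS and 5265 ± 496 in RR (-0.46, adjusted p 7.47e-05), in the direction of Igfbp4 and Igfbp6, while Krt19 and Cftr were under 50. Krt7 is also among the chromosome 7 neighbours of Igfbp6 counted below, most of which were lower in RS. All endothelial and leukocyte markers were under 50. Of 7 acinar markers 6 were under 50, and none passed. Of 4 hepatocyte markers 3 were under 50, of which Alb passed as lower (-0.47, adjusted p 0.0165, limma). Ttr, the brighter one, averaged 98.2 in RS and 78.3 in RR and did not pass. The part of these shifts in the results below was not tested.

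Among the ligands, Igf2 was the member of the axis that rose. Igf2 is an imprinted fetal growth factor that binds Igf1r and a form of the insulin receptor. Its brightest probe set (1367571_a_at) read 1350.4 to 1622 with a median of 1453 in RS cells, against 741 to 959 with a median of 803 in RR cells. Every RS array thus lay above every RR array, and the spread within each line was small beside the gap. The means were 1458 ± 100.1 in RS and 819 ± 78.9 in RR (SD, n = 6 each), a log2 fold change of 0.83 ± 0.07 (SE) with a limma adjusted p of 1.90e-06. The 3 other Igf2 probe sets, all designed on 1 older cDNA record, did not exceed 18.2 on any array and none passed the test. Their log2 changes were -0.01, -0.07 and -0.15, so the rise was seen by 1 of 4 probe sets, the only bright one. Which Igf2 transcripts each set detects was not analysed here.

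Insulin and Igf1, the other ligands, were read alongside. Ins2, the rat counterpart of the single insulin gene of humans, read 1518 to 1909 with a median of 1834 in RS cells, against 541 to 1041 with a median of 675 in RR cells. The lines did not overlap, and the log2 fold change was 1.30 ± 0.16 with an adjusted p of 2.97e-05 (limma). The RR arrays were in separate ranges, at 778 to 1041 for replicates 1 to 3 and 541 to 571 for replicates 4 to 6, and the log2 fold change was 0.97 against the first trio and 1.64 against the second. Ins1, the second insulin gene of the rat, averaged 6495 ± 978 in RS and 7118 ± 309 in RR and did not pass (log2 fold change -0.06, adjusted p 0.408). Its probe set lay at percentile 99.9 of mean signal. The study reported Ins1 as higher in RS, both by its own processing of the arrays and by qRT-PCR. It also reported Ins2 as higher in RS on the arrays, whereas its qRT-PCR, on separate samples, detected no Ins2 RNA in RR. The array signal of Ins2 in RR therefore stands beside a qRT-PCR result that did not find it. Igf1 was dim, at 24.3 ± 9.09 in RS and 23.4 ± 10.4 in RR (adjusted p 0.892). H19, the imprinted noncoding RNA gene that lies 81 kb from Igf2 and shares its control regions in mice, averaged 71.4 ± 13.3 in RS and 75 ± 17.9 in RR, with a log2 fold change of -0.07 and an adjusted p of 0.749.

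Igf2 lies on the minus strand of chromosome 1 (GRCr8, 207243873 to 207261263). A window before 1 of the starts that RefSeq lists is shown because Igf2 was the ligand gene among the members that rose. It spans chr1:207250476-207250725, and the capitals mark GGGCGG, the core of the site of Sp1, found in 30.5% of all windows of this length.
Igf2: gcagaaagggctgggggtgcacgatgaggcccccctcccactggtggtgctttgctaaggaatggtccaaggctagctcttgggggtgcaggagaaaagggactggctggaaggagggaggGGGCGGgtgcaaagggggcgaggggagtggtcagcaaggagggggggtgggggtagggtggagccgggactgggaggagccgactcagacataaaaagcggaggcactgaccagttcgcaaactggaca
The other listed window of Igf2, chr1:207253981-207254230, held none of the motifs searched.

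The receptors differed little between the lines. Igf1r, the receptor of Igf1 and Igf2, read 1447 to 1784 with a median of 1562 in RS cells, against 1214 to 1562 with a median of 1350.3 in RR cells (1392492_at). The lines met at their edges, since the highest RR array reached the middle of the RS arrays. The log2 fold change was 0.22 ± 0.08 with an adjusted p of 0.0412 (limma), and the exact two-sided permutation p was 0.013. The second probe set of the gene (1368123_at) gave 922 ± 58.9 in RS and 804 ± 54.7 in RR, a log2 fold change of 0.19 ± 0.06 with an adjusted p of 0.0416. Both calls stood close to the threshold. Leaving out 1 array at a time moved the adjusted p of the first between 0.0142 and 0.0881, and 9 of the 12 omissions took it past 0.05. Against RR replicates 1 to 3 alone the log2 difference was 0.14 (adjusted p 0.306), and against replicates 4 to 6 alone 0.31 (0.0319).

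Insr, the insulin receptor, did not pass the test in either of its probe sets over all arrays. Its brighter probe set (1369051_at) read 57.2 to 67.7 with a median of 66.5 in RS cells, against 45.5 to 88.4 with a median of 50.3 in RR cells. The RR arrays enclosed the RS arrays, with replicates 4 and 5 high at 88.4 and 73.9 and the other 4 between 45.5 and 51.1. The log2 difference was 0.10 with a 95% interval of -0.19 to 0.38 and an adjusted p of 0.641 (limma). The result turned on the RR arrays used. RS was higher than RR replicates 1 to 3 alone (0.33, adjusted p 0.00659), whereas against replicates 4 to 6 alone the difference was -0.13 (0.52). The second Insr probe set averaged 33 in RS and 30 in RR, with an adjusted p of 0.607.

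Igf2r, which clears Igf2 into lysosomes and does not signal as a kinase, was close to Igf1r in its change. It averaged 751 ± 54.3 in RS and 641 ± 59.2 in RR, a log2 fold change of 0.22 with an adjusted p of 0.0413 (limma), and 8 of the 12 omissions of an array took it past the threshold. Against RR replicates 1 to 3 alone it was at 0.16 (adjusted p 0.296).

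Irs2, the docking protein that carries insulin and IGF signals in beta cells, was lower in RS cells. Its only probe set (1371091_at) read 839.9 to 1069.6 with a median of 947 in RS cells, against 1074 to 1448 with a median of 1239.7 in RR cells. The highest RS array came close to the lowest RR array, but the lines did not overlap. The means were 949.7 ± 84.7 in RS and 1263 ± 137 in RR, a log2 fold change of -0.41 ± 0.08 with an adjusted p of 0.00199 (limma). Irs1, the companion substrate, was near 50 in both lines, at 53.8 ± 6.24 in RS and 57 ± 10.3 in RR, and did not pass (log2 fold change -0.08, adjusted p 0.624). Against RR replicates 4 to 6 alone it was lower in RS (-0.26, adjusted p 0.041), and against replicates 1 to 3 alone the difference was 0.11 (0.418).

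**Figure D2:**
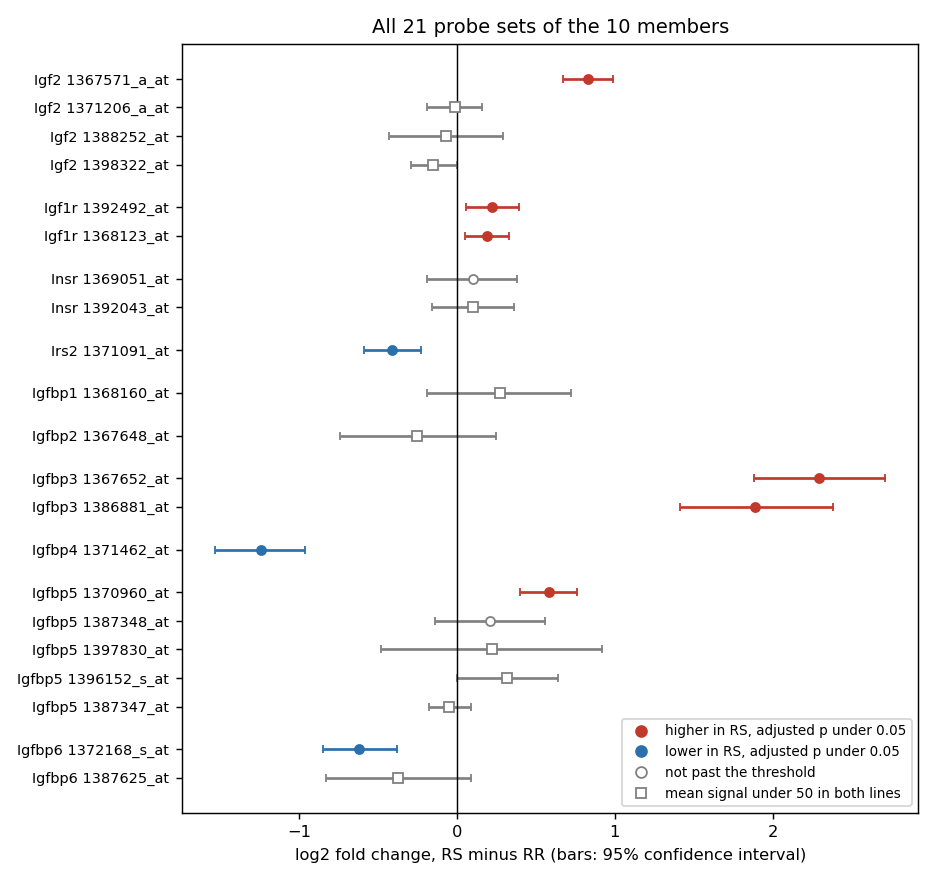
Log2 fold change, RS minus RR, of all 21 probe sets (horizontal axis) with 95% confidence intervals from limma, grouped by gene from Igf2 at the top to Igfbp6 at the bottom. Filled red and blue points passed an adjusted p of 0.05 as higher and lower in RS, open grey points did not, and squares mark the 10 probe sets under 50 in both lines. Igfbp3 reaches 2.29 and 1.89 and Igfbp4 reaches -1.24, while every square is open.

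The binding proteins held the largest changes of the axis. Igfbp3, the main IGF carrier of plasma and a protein with actions of its own on cell growth, went up the most. Its brighter probe set (1367652_at) read 173 to 255 with a median of 181 in RS cells, against 9.12 to 44.1 with a median of 29 in RR cells. Every RS array lay far above the highest RR array. All 6 RR arrays were under 50. The means were 195 ± 31 in RS and 28.1 ± 13.9 in RR, a log2 fold change of 2.29 ± 0.19 with an adjusted p of 1.08e-06 (limma), and the plain ratio of the mean signals was 6.94. The second probe set (1386881_at) went the same way, with 92.4 to 123 in RS and 3.19 to 34.7 in RR, and a log2 fold change of 1.89 ± 0.22 with an adjusted p of 2.39e-05.

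The 6 RR arrays themselves were not alike for Igfbp3. On the brighter probe set replicates 1 to 3 read 39.4, 44.1 and 36.6, while replicates 4 to 6 read 9.12, 18.1 and 21.3. The second probe set did not divide them in that way, at 34.7, 30.9 and 7.84 for replicates 1 to 3 and 12.3, 32.1 and 3.19 for replicates 4 to 6. The log2 fold change of the brighter set was 1.92 (adjusted p 6.55e-06, limma) against replicates 1 to 3 and 2.67 (4.00e-06) against replicates 4 to 6. The trios did not overlap for 1 of the 21 member probe sets, this one, and for 10 of the 40 other genes named here. Ins2, Pappa2 and Nras were among the 10. Most of the 40 were named for the size of their change, and the share over all probe sets was not counted. No excess can therefore be read from these counts.

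Igfbp1 lies next to Igfbp3, tail to tail on chromosome 14 with 3.86 kb between the genes (GRCr8, 86261277 to 86266344 and 86270208 to 86277944). It encodes a liver-secreted binding protein whose transcription insulin shuts down. In these cells it was dim and showed no call, with 17.9 to 50.3 and a median of 27 in RS cells, against 7.32 to 40.3 and a median of 24 in RR cells. The lines overlapped over most of their range, and the log2 difference of 0.27 had a 95% interval of -0.19 to 0.72 (adjusted p 0.39, limma). The difference between these neighbours in their change was not tested.

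The windows before the starts of this pair are shown because they differ in the letters known from Igfbp1. Igfbp1 (chr14:86261027-86261276, plus strand) holds CAAAACA, the core of its insulin response element, at 121 to 115 bases before the start, marked in capitals. Igfbp3 (chr14:86277945-86278194, minus strand) holds none of the motifs searched.
Igfbp1: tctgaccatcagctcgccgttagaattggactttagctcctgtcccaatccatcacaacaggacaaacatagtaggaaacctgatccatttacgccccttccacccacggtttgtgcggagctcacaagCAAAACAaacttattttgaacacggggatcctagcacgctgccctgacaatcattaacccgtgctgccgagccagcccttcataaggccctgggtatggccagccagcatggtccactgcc
Igfbp3: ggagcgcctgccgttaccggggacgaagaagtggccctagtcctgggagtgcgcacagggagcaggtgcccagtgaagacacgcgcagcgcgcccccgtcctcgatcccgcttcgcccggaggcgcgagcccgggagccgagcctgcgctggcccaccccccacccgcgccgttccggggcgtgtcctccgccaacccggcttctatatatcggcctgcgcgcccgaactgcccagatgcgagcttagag
CAAAACA was found in 5.46% of the 33469 RefSeq windows of this length and GTAAACA, a core bound by FoxO factors, in 3.21%, on either strand. TGACNNNGC, the core of an antioxidant response element, occurred in 10.1% and in no window of the members. Of the 10 windows of 9 members, CAAAACA occurred in that of Igfbp1 and GTAAACA in those of Igfbp6 and Insr. The Igfbp3 window held 31 CpG pairs and 71.6% G and C, against medians of 5 and 51.2% over all windows, and the Igfbp1 window 9 and 52.8%. A match is a string of letters, not a site in use.

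Igfbp4, which holds IGFs away from their receptors until it is cut, fell the most. It read 1082 to 2014 with a median of 1399.6 in RS cells, against 2947 to 4174 with a median of 3295 in RR cells (1371462_at). The highest RS array, replicate 2, was still well under the lowest RR array. The means were 1431 ± 327 in RS and 3407 ± 455 in RR, a log2 fold change of -1.24 ± 0.13 with an adjusted p of 9.26e-06 (limma). Without RS replicate 2 the log2 fold change was -1.34. The gene lies on chromosome 10 (GRCr8, 84491471 to 84503487, plus strand), and its upstream window (chr10:84491221-84491470) is shown for its TATAAA, in capitals, at 40 to 35 bases before the start, the letters of a TATA box.
Igfbp4: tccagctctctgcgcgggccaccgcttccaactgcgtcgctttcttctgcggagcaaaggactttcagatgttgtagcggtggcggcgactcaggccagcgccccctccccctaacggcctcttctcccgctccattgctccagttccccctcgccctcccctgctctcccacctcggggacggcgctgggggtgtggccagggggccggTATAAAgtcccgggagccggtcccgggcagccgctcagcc
TATAAA occurred in 12.9% of all windows and in no other window of the 9 members with one.

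Igfbp5, a binding protein that associates with extracellular matrix, rose on its brightest probe set. That set (1370960_at) read 803 to 1130.2 with a median of 899 in RS cells, against 567 to 664 with a median of 608 in RR cells. The lines did not overlap, and the log2 fold change was 0.58 ± 0.08 with an adjusted p of 0.000141 (limma). The next probe set (1387348_at) was bright too but did not pass, with 374 to 622 in RS and 318 to 581 in RR, a log2 difference of 0.21 with a 95% interval of -0.14 to 0.56 and an adjusted p of 0.371. RR replicate 5 stood high there at 581, and RS replicates 2 and 5 at 622 and 539. The intervals of the bright pair meet between 0.40 and 0.56. The 3 remaining sets were dim, with means of at most 26.4 in RS and 20 in RR and adjusted p-values of 0.125 to 0.677.

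Igfbp2 lies beside Igfbp5 on chromosome 9, also tail to tail, with 9.43 kb between them (GRCr8, 81864811 to 81892179 and 81901605 to 81914187). It encodes a binding protein of fetal and neural tissue and was dim in both lines, with 12.3 to 16.8 and a median of 16.4 in RS cells, against 12.1 to 66.4 and a median of 16.5 in RR cells. The medians were almost equal, and RR replicate 4 alone stood apart at 66.4, with the next RR array at 20.5. The log2 difference was -0.25 with an adjusted p of 0.478 (limma), and leaving out 1 array at a time brought it as near to 0 as -0.01.

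Igfbp6, which prefers Igf2 to Igf1, fell. Its brighter probe set (1372168_s_at) read 39.1 to 62 with a median of 54.5 in RS cells, against 68.3 to 112 with a median of 85.9 in RR cells. The lines did not overlap, though both were low on the scale of the array. The log2 fold change was -0.62 ± 0.11 with an adjusted p of 0.000599 (limma). The other probe set (1387625_at) was dim, with 0.93 to 4.17 in RS and 1.34 to 26.8 in RR, and did not pass (adjusted p 0.219). The called set is marked as cross-hybridising, so the call rests on such a set alone. The Igfbp6 window is shown because it holds GTAAACA, in capitals, at 221 to 215 bases before the start (chr7:135154669-135154918, plus strand).
Igfbp6: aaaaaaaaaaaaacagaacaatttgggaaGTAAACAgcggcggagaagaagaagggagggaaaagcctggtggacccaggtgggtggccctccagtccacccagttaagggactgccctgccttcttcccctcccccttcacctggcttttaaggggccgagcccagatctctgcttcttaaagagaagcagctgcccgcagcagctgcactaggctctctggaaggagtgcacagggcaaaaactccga

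Igfbp7, a related secreted protein that binds IGFs weakly, and the factors that act on the binding proteins were taken from a list of 15 measured genes of other ligands, receptors and binding factors. Of these 4 were higher, 1 lower and 10 did not pass, or 33.3% called with a median log2 change of 0.14, against 39.2% and 0.02 over all genes. The list holds Ins1, Ins2, Igf1 and Igf2r, given above. Igfbp7 read 70 to 123 with a median of 84 in RS cells, against 326 to 528 with a median of 349.7 in RR cells, a log2 fold change of -1.95 ± 0.14 with an adjusted p of 3.07e-07 (limma). No array overlapped. Pappa2, a protease known in humans to cut IGFBP3 and IGFBP5, averaged 183 ± 30.7 in RS and 61.1 ± 31.3 in RR, and its log2 fold change was 1.44 ± 0.23 with an adjusted p of 0.000276. Its RR arrays were at 80.4 to 101 in replicates 1 to 3 and 29.3 to 37.5 in replicates 4 to 6, and the log2 fold change was 0.93 against the first trio and 1.95 against the second. The other Pappa2 probe set did not pass. Stc1, a secreted glycoprotein that in humans binds and blocks pappalysins, averaged 626 ± 55.1 in RS and 206 ± 15.8 in RR, a log2 fold change of 1.52 ± 0.07 with an adjusted p of 1.04e-08. For both Pappa2 and Stc1 every RS array lay above every RR array.

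Downstream of the receptors, calls were about as frequent as across the array in most lists. Of 26 adaptors and substrates 4 were higher and 5 lower (34.6% called, median -0.05). Sh2b2, an adaptor of the insulin receptor, was the only 1 to rise at least 2-fold, with a log2 fold change of 1.12, followed by Grb14, which blocks the insulin receptor kinase (0.48), the ubiquitin ligase Cblb (0.31) and Crk (0.17). For Crk 1 of its other probe sets passed in the opposite direction, and its call was lost with median centring (0.14, adjusted p 0.148), with the replicate number as a block (0.0798), against either RR trio and in 6 of the 12 omissions of an array. The adaptors Dok5 (-1.0), Sh2b3 (-0.72), Sh2b1 (-0.54) and Shc2 (-0.44) were lower in RS cells.

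Of 31 genes of the PI3K-Akt branch 6 were higher and 5 lower (35.5% called, median 0.06), and none changed 2-fold. Gsk3b, a kinase that Akt inhibits, led the higher genes with 0.44, before Mtor (0.38), the mTOR-binding Deptor (0.36) and Rheb, the small GTPase that activates mTOR (0.25). The lower genes were led by Pik3r1, the regulatory subunit of PI3K, at -0.76, followed by Bad (-0.65), Foxo3 (-0.46) and Tsc2, which restrains Rheb (-0.35). Akt1 averaged 2023 ± 239.9 in RS and 2209.6 ± 58.4 in RR and did not pass (log2 fold change -0.10, adjusted p 0.35, limma). Without RS replicate 2 it passed as lower in RS (-0.16, adjusted p 0.0315). Foxo1 averaged 218 ± 12.3 in RS and 195 ± 31.1 in RR and did not pass either (0.15, adjusted p 0.251).

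The Ras-MAP kinase branch was called most often of the 5 lists, with 6 of 19 genes higher and 4 lower (52.6%, median 0.10). Of all genes 39.2% passed, 21% higher and 18.3% lower, but 3577 of those 14218 were dim and none of the 19 was. Where the average signal reached 100, 28.6% of genes were higher and 25.2% lower, and 46.4% of the brighter probe sets passed. No excess of calls can therefore be read from this list. Against RR replicates 1 to 3 alone 6 of the 19 passed, and no share of all genes from that fit is given here. Ksr1, the scaffold of the kinase cascade, averaged 72 in RS and 25.4 in RR, a log2 fold change of 1.09. Nras averaged 1716 ± 81.4 in RS and 826 ± 162 in RR, a log2 fold change of 1.06 with an adjusted p of 1.24e-05 (limma), and 0.81 and 1.31 against RR replicates 1 to 3 and 4 to 6 alone. Rps6ka2 (0.58) and Myc (0.40) were also higher. Dusp6, an ERK phosphatase, was lower at -0.78, as were the receptor signalling inhibitor Spry1 (-0.36), the Ras activator Sos2 (-0.34) and the kinase Rps6ka3 (-0.29). For Rps6ka3 another probe set passed in the opposite direction, and its call was lost against RR replicates 1 to 3 alone (-0.17, adjusted p 0.162). Spry1 lost its call in 3 of the 12 omissions of an array and against either RR trio.

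Of 20 genes known as FoxO targets, which Akt signalling holds down, 1 was higher and 7 lower (40% called, median 0.05). Gadd45b, a growth arrest and stress gene, averaged 45.4 ± 10.8 in RS and 216 ± 14.4 in RR, a log2 fold change of -1.95 with an adjusted p of 5.90e-08 (limma). Cited2, a transcriptional coregulator, averaged 546 ± 63.3 in RS and 1359 ± 144 in RR, at -1.29. Bcl6 (-0.61) and the mitophagy receptor Bnip3 (-0.49) were lower too, and the cyclin Ccng2 (0.40) was the higher gene. Bnip3 and Ccng2 lost their calls against RR replicates 1 to 3 alone (adjusted p 0.126 and 0.152). The other 12 of the list did not pass on their brightest probe set, though Klf2 passed as lower on 1 of its 5 sets.

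**Figure D3:**
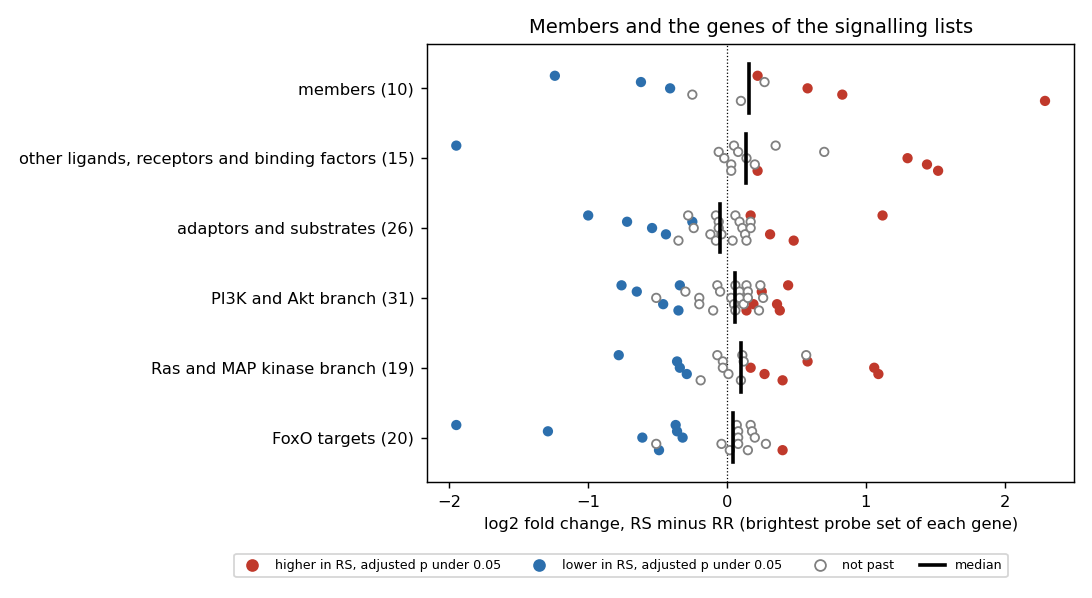
Log2 fold change, RS minus RR, of the 10 members and of the genes of the 5 signalling lists (brightest probe set of each gene, number of genes in brackets on the vertical axis). Filled red and blue points passed an adjusted p of 0.05 as higher and lower in RS, open points did not, and black bars are medians. Medians lie between -0.05 and 0.16, and the members spread from -1.24 to 2.29.

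The genes around each member were examined in the gene order of GRCr8, taking the 10 nearest on each side with a mean signal of at least 100. Of all such genes 28.6% were higher and 25.2% lower in RS cells, with a median log2 change of 0.03. Around Igfbp3 6 of 20 genes were higher and 6 lower with a median of -0.06, and none of the 20 exceeded 0.68, against 2.29 for Igfbp3. Igfbp4 ran against its surroundings, since 8 of 20 were higher and 2 lower with a median of 0.14. Igfbp5 also stood against them, with 1 of 20 higher and 13 lower and a median of -0.42. Igfbp6 shared the direction of its neighbours, of which none was higher and 13 of 20 were lower, with a median of -0.44. Igf2 and the gene nearest to it on the measured list, Ins2, were both higher, while 12 of the 20 genes around Igf2 were lower and 3 higher with a median of -0.24. Igf1r lay among 11 higher and 2 lower genes with a median of 0.21, which is close to its own change of 0.22. For Irs2, 3 of 16 neighbours were higher and 1 lower. Insr had 15 such neighbours, 7 lower and none higher. Of the 20 neighbours, 19 are shared between Igfbp3 and Igfbp1, and 19 between Igfbp5 and Igfbp2. The stretches taken differed in length, from 1.87 Mb around Igfbp6 and 1.93 Mb around Igfbp4 to 10.8 Mb around Igfbp3 and 13.5 Mb around Igf1r. The neighbours of different members are thus not equally close.

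**Figure D4:**
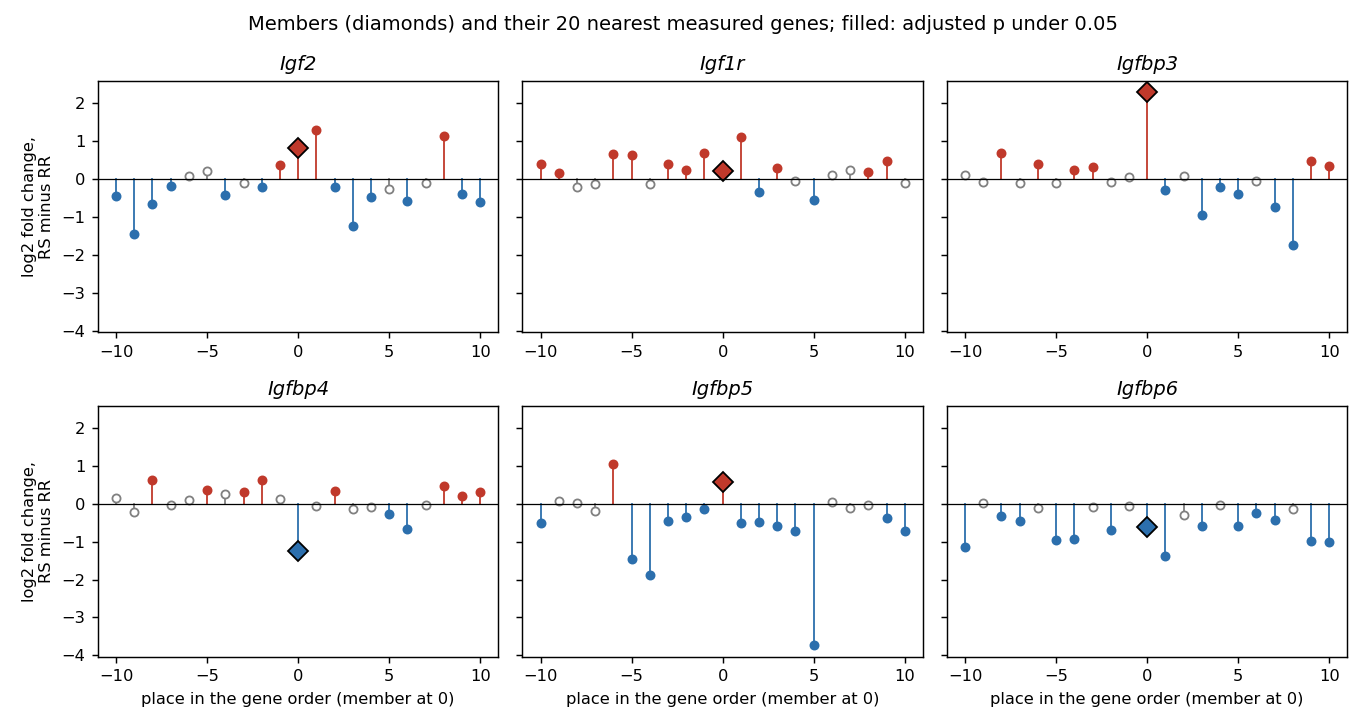
Log2 fold change, RS minus RR, of 6 members (diamonds, at place 0) and of the 10 nearest genes on each side with a mean signal of at least 100 (circles), by their place in the gene order. Filled symbols passed an adjusted p of 0.05. Igfbp3 at 2.29 and Igfbp4 at -1.24 stand apart from their surroundings, whereas Igfbp6 points down with 13 of its 20 neighbours.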

How the data were processed

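Total RNA of 6 CRI-G1-RS and 6 CRI-G1-RR samples was hybridised to 12 Affymetrix Rat 230 2.0 arrays. The deposited values are signal intensities on a linear scale, scaled by the authors so that the mean trimmed by 2% is about 250.1 on every array, and GCOS 1.4 is the tool in the submitters' processing notes. The study's methods describe robust multi-chip averaging, which these values are not. Arrays were quantile normalized, 16 was added before log2, and limma 3.58.1 (under R 4.3.3) fitted a linear model whose sole factor was the cell line. Benjamini-Hochberg adjustment ran over 31099 probe sets, with no filter. Arrays give no counts, and their number limits the precision. On simulated data of 6 arrays against 6 with 31099 probe sets, 99 of 100 probe sets changed 2-fold and 84 of 100 changed 1.5-fold were recovered, with 8 false calls. The changed probe sets were drawn only from the brighter ones, were few beside those called in the real data, and had independent normal noise. The rates therefore do not hold for dimmer probe sets, such as those of Igfbp1, Igfbp2, Igfbp3, Igfbp6 and Insr.

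Probe sets were named by the platform annotation, which gives 20832 of them 1 symbol, 436 several and 9831 none. The probe set of highest mean signal stood for a gene. Of the called list genes named above, Pappa2, Igf2r, Shc2, Ksr1, Rheb and Deptor passed in only 1 of their 2 probe sets. Foxo3 passed in 1 of 3 and Stc1 in 2 of 3. Some list genes that did not pass on their brightest probe set passed on another. Trib3 (2 of 3 sets), Pdpk1 (1 of 2) and Klf2 (1 of 5) were lower there. Igf2bp2 (1 of 2), Grb2 (1 of 3), Cbl (1 of 4) and Pik3ca (1 of 6) were higher. No 2 of the 12 arrays held identical values (66 pairs).

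The members and gene lists were chosen with earlier results of these data known. Named were all members, Ins1, Ins2, Igf1, H19, Irs1, Akt1 and Foxo1, and up to 4 called genes of largest change in each direction from each list. Upstream windows of 250 bases are RefSeq's (GRCr8), found for 9 of 10 members. Both strands were searched for the 5 motifs spelled out in the text, and no matches overlapped. Protein sequences were not analysed here. As alternatives, arrays were centred on their medians or left at the deposited scaling, the pseudocount was lowered to 1, dim probe sets were dropped, probe sets marked as cross-hybridising were dropped, and the gene's probe set of smallest p was used. The fit was also run with a block for the replicate number, with a trend on intensity, with weights for the arrays, against a minimum log2 change of 0.2 (treat), without each array, and, added after seeing the data, with RR replicates 1 to 3 or 4 to 6 as the only RR arrays.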

Additional observations from a re-analysis of the deposited data

Results flagged for a closer look

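Of 42 groups of 6 arrays (21 probe sets in 2 lines), 7 held an array far from the others by Dixon's test on the linear signals. Its chance rate of about 1 in 20 holds for normally distributed values, which linear signals need not be. No excess of outlying arrays can therefore be read from this count. For Igfbp3 (1367652_at) RS replicate 3 read 255, with the next RS array at 202. For Igfbp5 (1387348_at) RR replicate 5 read 581, against 401 for the next RR array, on the bright probe set of this gene that did not pass the test. For Igfbp2 RR replicate 4 read 66.4, against 20.5 for the next. The other 4 stood on probe sets near the bottom of the scale: Igfbp5 (1387347_at) at 5.27 in RS replicate 2, Igfbp6 (1387625_at) at 4.17 in RS replicate 5, and Igf2 (1388252_at) at 7.13 in RS replicate 4 and at 18.2 in RR replicate 6. Without the array concerned, Igfbp3 stayed called and the other probe sets stayed uncalled.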

How the results depend on the processing

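Igfbp3, Igfbp4, Igfbp5, Igfbp6 and Igf2 kept their direction and their side of the threshold under every alternative that gave a value, and Igfbp1 and Igfbp2 stayed uncalled. Igfbp6 has no value without cross-hybridising probe sets. Igf1r lost its call with median centring (0.20, adjusted p 0.0685), a pseudocount of 1 (0.23, 0.0529), array weights (0.20, 0.0581) and a minimum change of 0.2 (0.22, 0.924). Leaving out 1 array gave Igf1r 0.19 to 0.27. Fits against 1 RR trio, added after seeing the data, changed Igf1r (0.14, 0.306, replicates 1 to 3), Insr (0.33, 0.00659, replicates 1 to 3, and -0.13, 0.52, replicates 4 to 6), the sign of Igfbp2 (0.07, replicates 1 to 3) and the Ras-MAP kinase count (6, replicates 1 to 3). With the replicate number as a block Igf1r stood at 0.22 with an adjusted p of 0.0708, the only member gene whose call the block changed, and 9204 probe sets passed instead of 9860. The labels state that passages were collected in pairs but not which, and numbers were not used to pair samples, since deviations of same-numbered arrays correlated at -0.0627 to 0.077, and only 1 RS and 2 RR arrays were closest to the array of their own number. Irs2 lost its call only with a minimum change of 0.2 (-0.41, 0.079). That minimum also left 5140 probe sets, and 4 PI3K-Akt genes, 6 Ras-MAP kinase genes and 3 FoxO targets. Leaving out 1 array gave 9162 to 10010 probe sets, 7 to 9 of the 21 member probe sets, and 10 to 12, 8 to 10 and 8 to 9 genes of those lists. As a ratio of mean deposited signals, an alternative added after seeing the data, Igfbp3 had a log2 value of 2.79. Other signs turned only for uncalled values. Both Igf2 probe sets 1371206_a_at and 1388252_at gave 0.01 with a pseudocount of 1. Against a trio the first gave 0.02 (replicates 4 to 6), the second 0.13, Igf1 -0.10, Irs1 0.11 and H19 0.14 (all replicates 1 to 3). Leaving out 1 array gave the Igf2 sets -0.06 to 0.03 and -0.12 to 0.11, Igf1 -0.13 to 0.16 and H19 -0.16 to 0.01. Calls also moved for probe sets that do not stand for their gene. With a pseudocount of 1 the dim Igf2 set 1398322_at passed as lower in RS (-0.54, adjusted p 0.0421, limma). The dim Igfbp6 set 1387625_at passed as lower against RR replicates 4 to 6 alone (-0.72, 0.0345). The Igf1r set 1368123_at lost its call against either trio (0.231 for replicates 1 to 3, 0.0747 for 4 to 6). Signals under 50 limit what can be said of Igfbp1, Igfbp2 and the dim probe sets.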
